A study of Mus musculus with 12 samples.

Results

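The cytosolic ribosomal protein genes are described here across white fat and cultured adipocytes with and without Xap5. They were taken as all symbols beginning with Rpl or Rps and a digit, together with Rplp0, Rplp1, Rplp2 and Rpsa, that both count tables list. Kinases of the Rps6k family, pseudogenes marked -ps and numbered copies of a symbol were left out. The rule gave 89 genes of the 21669 symbols in both tables. Of these, 46 encode proteins of the large subunit and 31 proteins of the small subunit, 10 are paralogs of a subunit gene, and 2 (Rps19bp1 and Rps23rg1) carry a ribosomal name without encoding a subunit.

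Xap5 is a nuclear protein encoded by Fam50a. White adipose tissue (WAT) came on day 42 from wild-type (WT) mice and from conditional knockout mice (cKO) in which a Cre recombinase under the adiponectin promoter removed Xap5, a promoter active in mature adipocytes and not in the other cells of the tissue. Adipocytes of WT or knockout (KO) genotype were grown from pre-adipocytes of the subcutaneous fat of newborn WT or adiponectin-cKO mice and taken on day 8 of induction with insulin, dexamethasone and IBMX. All 4 groups held 3 libraries of messenger RNA, and the labels give no other treatment. Whether the 3 libraries of a group stand for separate animals or cultures is not said in the labels, and p-values therefore describe the spread between libraries alone, part of which may be technical.

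A cytosolic ribosome joins a small subunit, which reads the messenger RNA, to a large subunit, which forms the peptide bond, and each subunit protein is needed in about the same number as the others. Many of these messenger RNAs begin with a cytosine followed by a run of pyrimidines, the 5′ terminal oligopyrimidine (TOP) sequence, through which mTORC1 and LARP1 set their translation and their stability. Ribosomal protein genes also have many processed pseudogenes and near-identical copies elsewhere in the genome.

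Libraries held 28844370 to 33997204 counts in WAT and 10863158 to 21773610 in culture. Fam50a was at 35.3, 32.5 and 36.5 CPM (counts relative to the library total, scaled by TMM factors) in WT WAT. In cKO WAT it was at 23.3, 16.8 and 28.9 CPM, a log2 change of -0.60 (SE 0.20, adjusted p = 0.039, edgeR), which was 0.089 with library size only (adjusted p = 0.74). In culture it was at 57.9, 52.0 and 45.2 in WT and 46.2, 42.9 and 41.1 in KO, the groups overlapped, and the change of -0.26 (SE 0.12) did not pass the test (adjusted p = 0.13). The labels do not give the deleted exons, so reads outside them cannot be told apart from intact transcript. Markers of the cell types in WAT differed between its groups. As background for the counts below, 28.2% of all genes tested rose and 24.2% fell in WAT (54.2% and 8.76% with library size only). In culture 8.94% rose and 10.6% fell. The summed level of 12 mature adipocyte markers was 71890 to 74063 CPM in WT and 11302 to 29257 in cKO, and 10 of the 12 fell. Of 13 macrophage markers 12 rose (sums of 659 to 999 against 2717 to 5662), as did all 10 proliferation markers (24.8 to 26.5 against 89.6 to 168) and 6 of 10 preadipocyte and fibroblast markers (1117 to 1268 against 2605 to 4436). Of 7 endothelial markers 5 fell (1 rose and 1 fell with library size only), of 9 lymphocyte markers 1 rose (3 with library size only), and no erythroid or epithelial marker passed by edgeR, at an unadjusted p under 0.05 or by DESeq2. Only 3 of 7 epithelial markers could be tested. Their summed level was 549 CPM in cKO replicate 3, 0.667 and 0.614 in cKO replicates 1 and 2, and 1.61 to 23.0 in WT. Erythroid markers summed to 1803 to 2413 CPM in WT and 648 to 3496 in cKO. Of 6 skeletal muscle markers 1 rose in WAT (Myh1, 5.48, SE 1.74, adjusted p = 0.032, edgeR) and 0 fell. In culture 4 of 11 adipocyte markers rose and 1 fell, and 5 of 13 macrophage markers fell, with sums of 3950 to 4369 CPM in WT and 2765 to 3286 CPM in KO. Of 9 preadipocyte and fibroblast markers 1 rose and 3 fell there (6945 to 9088 CPM against 5116 to 6416 CPM), and 2 of 7 endothelial markers fell (312 to 386 against 243 to 281). In bulk tissue, fewer cells of a type and less RNA per cell cannot be told apart, and the part of the cell makeup in the results on ribosomal protein genes was not tested.

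The sequences below are the 50 bases around the annotated start of members on which the results turn, from 30 bases before it, 5′ to 3′ on the gene's strand, read from RefSeq promoters of GRCm38.p6. Capitals mark the longest run of C or T that begins with C and has at least 5 letters. Windows lie at chr3:90213629-90213678 (minus strand, Rps27), chr9:114982720-114982769 (minus, Rps27rt), chr7:141447621-141447670 (plus, Rplp2), chr7:4792935-4792984 (plus, Rpl28), chr4:86857348-86857397 (minus, Rps6), chr9:64173357-64173406 (plus, Rpl4), chr5:107900498-107900547 (plus, Rpl5), chr3:28805478-28805527 (plus, Rpl22l1) and chr11:97782420-97782469 (minus, Rpl23). Rps27 and Rps27rt are shown because their first bases are nearly the same, Rplp2 and Rpl28 because they fell in cKO WAT, Rps6 as the subunit phosphorylated downstream of mTORC1, and the last 4 because they rose there.
Rps27: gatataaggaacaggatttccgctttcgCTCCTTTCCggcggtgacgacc
Rps27rt: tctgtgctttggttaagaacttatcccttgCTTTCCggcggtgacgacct
Rplp2: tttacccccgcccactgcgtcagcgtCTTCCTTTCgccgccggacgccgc
Rpl28: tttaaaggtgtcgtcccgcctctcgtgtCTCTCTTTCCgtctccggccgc
Rps6: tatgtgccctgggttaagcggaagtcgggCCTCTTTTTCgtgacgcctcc
Rpl4: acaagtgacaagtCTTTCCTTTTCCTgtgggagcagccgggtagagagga
Rpl5: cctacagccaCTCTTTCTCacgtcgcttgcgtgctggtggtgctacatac
Rpl22l1: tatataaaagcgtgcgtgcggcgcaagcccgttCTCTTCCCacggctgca
Rpl23: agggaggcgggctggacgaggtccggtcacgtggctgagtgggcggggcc
The run began within 5 bases of the annotated start in Rps27, Rps27rt, Rplp2, Rpl28, Rps6 and Rpl22l1 and further upstream in Rpl4. In Rpl5 it also lay upstream of the start on which the window is set. The RefSeq gene record of Rpl5 begins earlier, at chr5:107900508, which is the first base of the marked run. No such run was found in the window of Rpl23. RefSeq windows matched 69 of the 89 members. A C at the first base followed by at least 4 C or T was present in 15 of them (21.7%), against 3.01% of all 27025 genes in the table. A C followed by at least 4 C or T stood within 5 bases of the start in 32 members (46.4%) against 21.2%. Stretches inside a longer run that began further upstream were counted too, as in Rpl35. A run of at least 8 letters lay within 50 bases of the start in 55 members (79.7%) against 32.0%. A run within 5 bases was absent from Rpl11, Rpl24, Rpl27, Rpl7l1, Rps19 and Rps19bp1, which fell in cKO WAT. It was also absent from Rps12 and Rps28, which rose there. The windows printed above are examples and do not stand for all members that fell or rose. Over the 300 bases from 250 before to 50 after the start, on both strands, CCGGAAG (an ETS-type motif) was found in 37.7% of members against 9.93% of all genes, GGGCGG (a GC box) in 59.4% against 38.2%, and AAGATGG (the core of a YY1 motif) in 14.5% against 7.28%. A match is a description of the letters and not a site of binding.

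Ribosomal protein genes took a larger share of the counts of a library in cKO WAT than in WT WAT. The share was 2.70%, 2.72% and 3.00% in the WT libraries and 4.34%, 3.66% and 4.90% in the cKO libraries, so that the groups did not overlap. The means were 2.81% ± 0.164 (SD, n = 3) and 4.30% ± 0.622 (n = 3), a ratio of 1.53. The exact two-sided permutation test gave p = 0.1, the smallest that 3 against 3 libraries allow. The 10 most abundant genes held 13.7% to 14.3% of counts in WT WAT and 6.28% to 6.47% in cKO WAT. With the 100 most abundant other genes left out of the total the ratio was 1.27. Most genes gained on this basis. Scaled by library size only, the median of all genes tested rose by 0.80 on the log2 scale and 54.2% were called higher in edgeR. The median of members rose by 0.64, less than that of all genes. In culture the share was 5.22%, 5.29% and 4.84% in WT and 5.96%, 5.55% and 4.94% in KO. Means of 5.12% ± 0.242 and 5.48% ± 0.509 (n = 3 each) differed by less than the spread of the KO libraries, and the exact permutation test gave p = 0.4. With mitochondrially encoded genes left out of the total, they were 5.69% ± 0.168 and 6.33% ± 0.451 (exact permutation p = 0.2), a difference larger than either SD that did not pass the test.

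**Figure D1:**
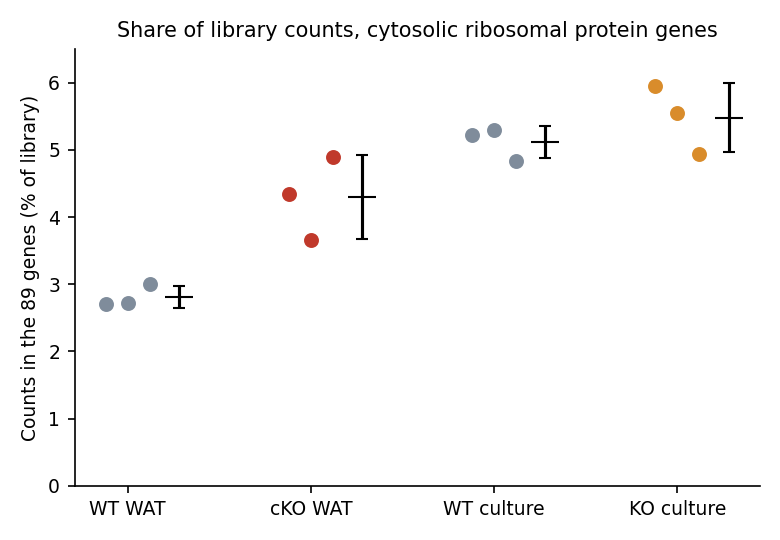
Share of all counts of a library, in percent, that fell on the 89 cytosolic ribosomal protein genes in each of the 4 groups. Points are libraries and bars are means with SD (n = 3); the cKO WAT libraries lie between 3.66% and 4.90%, above the WT WAT libraries at 2.70% to 3.00%, while the culture groups overlap. With library size only, the median of all genes in WAT also rose, by 0.80 on the log2 scale against 0.64 for these genes.

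The 77 subunit genes were ordered by level per kilobase of transcript. In WT WAT they had a median of 425 CPM per kb, with Rplp1 highest at 1486 CPM per kb, followed by Rps15 at 1445 and Rplp0 at 1244. In cKO WAT the median was 403 CPM per kb, and the same 3 genes led at 1493, 1124 and 1070. The medians in culture were 627 CPM per kb in WT and 724 in KO, where Rps2 (1759) and Rplp1 (1880) were highest. Among these 77 genes Rpl21 had the lowest level per kb in 3 of the groups, at 26.1 in cKO WAT, 21.5 in WT culture and 44.6 in KO culture. Rps28, at 4.23 CPM per kb, was the lowest in WT WAT, where numbered copies of the symbol held most of its counts.

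On the TMM scale the median of the cytosolic ribosomal protein genes in the tissue lay near 0, and single members changed in both directions. Of 87 members tested in WAT, 7 rose (Rps28, Rpl17, Rpl23, Rpl22l1, Rpl5, Rpl4 and Rps12) and 11 fell (among them Rps27rt, Rplp2, Rps19bp1, Rpl36, Rps19, Rpl11, Rpl28, Rpl24, Rpl7l1 and Rpl27) at an adjusted p under 0.05 in edgeR's quasi-likelihood test. That is 20.7% of members called, against 52.4% of the 16293 genes tested, where 28.2% rose and 24.2% fell. The median SE of a member's log2 fold change was 0.16, against 0.24 over all genes. The median member changed by -0.04 (quartiles -0.23 to 0.11), against a median of 0.12 (-0.58 to 0.96) for all genes. All cKO libraries lay above all WT libraries in 7 members and below them in 20, where the background was 35.1% and 29.3% of all genes tested. The 69 members that did not pass ran from -0.49 (Rps27l) to 0.94 (Rps27a), and 67 of them lay within 0.5 of 0.

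Single libraries bore on these calls. Those of Rps28, Rplp2, Rpl23 and Rpl36 were kept in each of the 6 fits that left out 1 library. Rpl11 and Rps19bp1 kept theirs in 5 fits, Rps19 in 4, and Rpl4, Rpl17, Rpl28, Rpl7l1 and Rps27rt in 2. Rpl5, Rpl22l1, Rpl27, Rpl24 and Rps12 kept theirs in 1. Members that rose numbered 3 without WT replicate 1 or 2, 4 without WT replicate 3, and 2 without cKO replicate 1 or 3. Members that fell numbered 6, 5 and 3 without WT replicates 1, 2 and 3, and 3 without cKO replicate 1. Over all genes, 3382 to 4375 rose and 3074 to 4220 fell in the 6 fits, against 4595 and 3947 with every library kept.

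The direction of these changes depended on the scaling, because TMM factors were 0.781 to 0.796 in WT WAT and 1.23 to 1.30 in cKO WAT. Scaled by library size only, 60 members rose and 0 fell in edgeR (background 54.2% higher and 8.76% lower), and the median member changed by 0.64 against 0.80 for all genes. The shift between both scalings was 0.68 for the median of all genes, and relative to that median members lay at -0.16 under either one. Subunit genes are short, with a median transcript of 869 bases against 2974 bases for the genes tested. With a trend in transcript length and GC content removed from each library, 22 members rose and 6 fell (background 21.7% and 24.2%), and the median of 0.39 lay above that of all genes at 0.02. This setting depends on the transcript chosen for each gene. Rps15a and Rps20, called lower here and not under TMM, were given lengths of 5179 and 3706 bases. Of the 11 members that fell under TMM, 2 remained below 0 with library size only and 4 with the trend removed. All 7 that rose under TMM kept that sign under both.

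**Figure D2:**
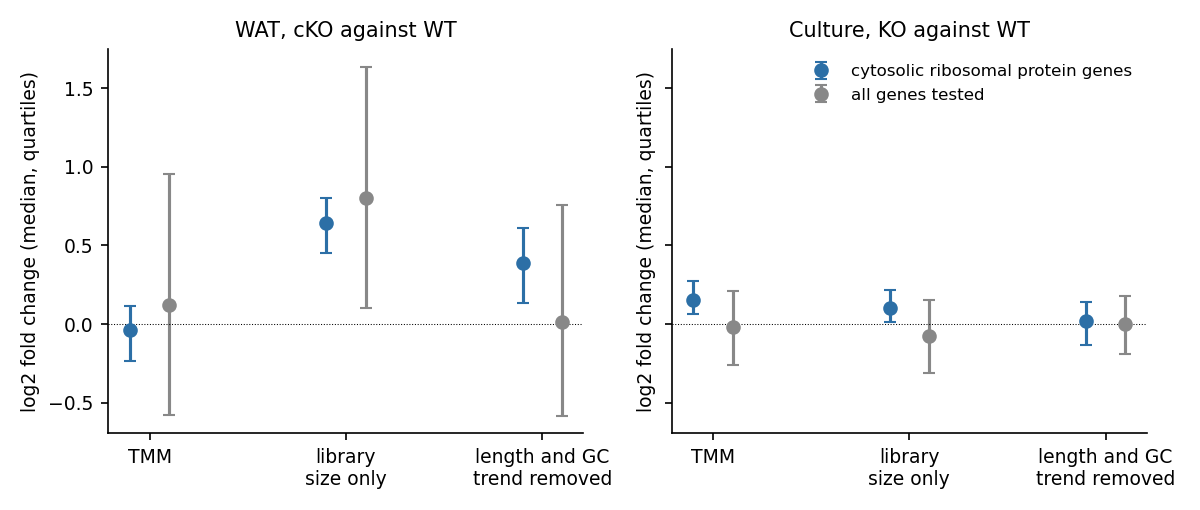
Median log2 fold change with its quartiles (bars) for cytosolic ribosomal protein genes (blue) and for all genes tested (grey) under 3 scalings, in WAT (left) and culture (right). In WAT the members' median moves from -0.04 under TMM to 0.64 with library size only and 0.39 with length and GC trend removed, while in culture it stays between 0.02 and 0.16.

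Among proteins of the stalk that recruits elongation factors, only Rplp2 passed the test in WAT. Rplp2 was at 811, 690 and 858 CPM in WT and 471, 519 and 423 CPM in cKO, without overlap. Its log2 change was -0.74 (SE 0.16, adjusted p = 0.0071), and leaving out any 1 library kept the call. Rplp1, its partner in the stalk, was at 771, 653 and 800 CPM against 747, 664 and 825 (0.01, SE 0.16). Rplp0, the base of the stalk, was at 1591, 1721 and 1753 CPM against 1382, 1228 and 1747 (-0.22, SE 0.19, adjusted p = 0.37). The groups overlapped for both of these.

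Rpl5 and Rpl11, which carry 5S ribosomal RNA into the large subunit and together bind Mdm2 when assembly fails, moved in opposite directions in the tissue under TMM. Under library size only they were at 1.23 and 0.17, and once the trend with GC and length had been taken out at 0.084 and 0.10. Their opposite signs thus held under TMM and not under those settings. The length used for that trend was 2045 bases for Rpl5 and 833 bases for Rpl11. Rpl5 was at 303, 305 and 377 CPM in WT and 471, 389 and 577 CPM in cKO, a log2 change of 0.54 (SE 0.19, adjusted p = 0.043). Rpl11 was at 556, 579 and 632 CPM in WT and 437, 394 and 406 CPM in cKO, a change of -0.51 (SE 0.13, adjusted p = 0.015). Neither pair of groups overlapped. The call for Rpl5 was kept in 1 of 6 fits that left out a library, with changes of 0.38 to 0.65, and that for Rpl11 in 5 of 6, where it was lost without WT replicate 3 (adjusted p = 0.065).

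Around the exit tunnel of the large subunit, 1 of 8 genes passed the test (12.5%, against the background of 52.4%), Rpl4, whose loop lines the tunnel. Rpl4 was at 463, 475 and 582 CPM in WT and 759, 617 and 839 CPM in cKO (0.54, SE 0.18, adjusted p = 0.036). Rpl23, a large subunit protein whose human ortholog also binds MDM2, had the smallest p among the rises that did not come with a numbered copy. It stood at 138, 127 and 150 CPM in WT and 229, 182 and 225 CPM in cKO, a change of 0.62 (SE 0.14, adjusted p = 0.0095) that held without any 1 library. Rpl36 was at 269, 214 and 254 CPM in WT and 175, 166 and 141 CPM in cKO, a change of -0.61 (SE 0.15, adjusted p = 0.011) that also held without any 1 library. With library size only, Rplp2 was at -0.06 and Rpl36 at 0.06, so that of these 3 genes Rpl23 alone kept its call there, at 1.30.

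In the small subunit, Rps19, the gene most often mutated in Diamond-Blackfan anaemia, was at 632, 567 and 652 CPM in WT libraries of the tissue against 440, 425 and 425 CPM in those of cKO. The groups did not overlap, and the change was -0.52 (SE 0.13, adjusted p = 0.014) under TMM and 0.16 with library size only. Rps19bp1, which encodes a protein that binds Rps19 and is not a subunit, was at 36.5, 38.8 and 41.5 CPM against 22.9, 30.4 and 22.2 (-0.63, SE 0.16, adjusted p = 0.012), and at 0.05 with library size only. Rps6, the target of S6 kinases, was at 698, 813 and 887 CPM against 752, 633 and 867, which overlapped (-0.09, SE 0.18). Rpsa, also known as the laminin receptor, was at 1318, 1433 and 1482 CPM against 1142, 1085 and 1446 and overlapped too (-0.20, SE 0.18). Rpl38 and Rpl13a, large subunit proteins known for the translation of chosen messenger RNAs, changed by -0.04 (SE 0.25) and 0.18 (SE 0.16) and did not pass the test.

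The largest change in WAT belonged to Rps28, a protein at the exit of the mRNA channel, and it depended on how counts were divided between copies of the symbol. Rps28 had 44, 69 and 18 counts in WT and 2374, 1640 and 2739 counts in cKO, a log2 change of 4.84 (SE 0.45, adjusted p = 0.00060). A copy named Rps28-2 had 2309, 1656 and 2301 counts in WT and 2493, 2285 and 155 counts in cKO. Rps28-2 was thus low in cKO replicate 3 and not in the other cKO libraries. In WT replicates 1 and 2, copies numbered 3 and 4 held a further 326 and 243 counts. Summed over all copies on the TMM scale, Rps28 stood at 117, 82.6 and 96.2 CPM in WT and 116, 96.8 and 66.1 CPM in cKO, the groups overlapped, and the change was -0.09. With all numbered copies summed, 6 members rose and 12 fell. The table of the cultures gave Rps28 at 135, 124 and 99.9 CPM in WT and 120, 136 and 85.1 CPM in KO (-0.07, SE 0.14).

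**Figure D3:**
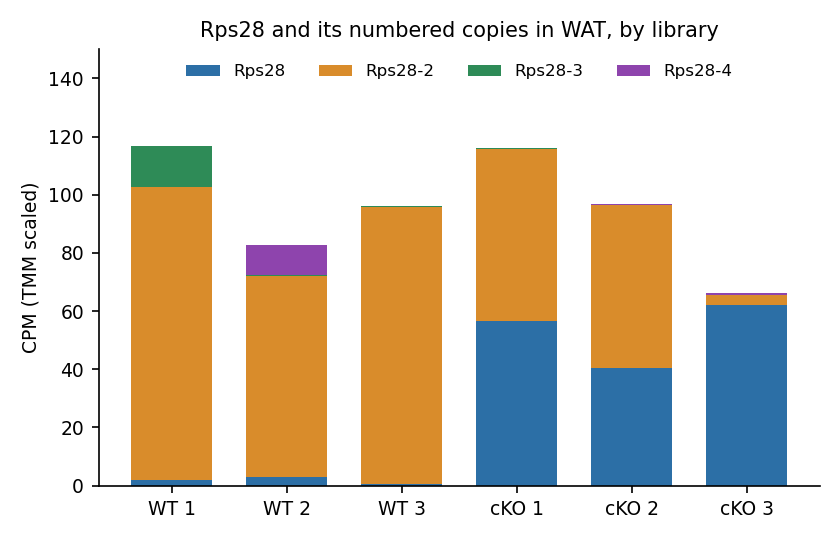
Level of Rps28 and its 3 numbered copies in each WAT library, stacked, in CPM. The bars labelled Rps28 grow from at most 2.88 CPM in WT to at least 40.3 CPM in cKO, while the stacked totals overlap at 82.6 to 117 and 66.1 to 116 CPM.

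In culture the calls among cytosolic ribosomal protein genes went 1 way. Of 86 members tested, 16 rose and 0 fell in edgeR, against 8.94% higher and 10.6% lower of the 12587 genes tested (19.5% in either direction). At an unadjusted p under 0.05, 24 members were higher and 0 lower, and DESeq2 called 19 higher and 0 lower. The share of members that rose, 18.6%, stood above the background share, and 72 of the 86 had a positive log2 fold change. The median member changed by 0.16, against -0.02 for all genes. All KO libraries lay above all WT libraries in 32 members and below them in 1, where the background was 18.0% and 18.8%. Of the large subunit genes 7 of 46 rose, and of the small subunit genes 7 of 31.

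The size of this shift also depended on the processing. With library size only 12 members rose and 0 fell (background 6.24% and 14.0%), and the median was 0.10 against -0.07. With the length and GC trend removed 9 rose and 6 fell (background 10.2% and 10.2%), and the median was 0.02 against 0.003 for all genes. In 1 fit over all 4 groups, which takes its spread from the tissue as well, 1 member rose and 0 fell. Calls over all genes were also fewer in that fit, with 58 higher and 88 lower of 14463, against 1125 and 1334 of 12587 in the main one. Single libraries also bore on the count. The median deviation of members from the WT mean was 0.29, 0.17 and 0.02 on the log2 scale in KO replicates 1, 2 and 3, and between -0.07 and 0.05 in the WT libraries. The count of members that rose was 8 without KO replicate 1, 8 without KO replicate 2 and 9 without WT replicate 2, and 3 with both libraries numbered 2 left out. Over all genes, 699, 664, 399 and 178 rose in these fits in the same order, against 1125 in the main one. In each of the 6 fits that left out 1 library the calls of Rps27a, Rpl21, Rpl22l1, Rps27, Rpl36al and Rpl5 were kept. Rpl9, Rps14 and Rpl17 kept theirs in 5, Rps25 in 4, Rps21 in 3, Rpl7, Rps3a1 and Rps19 in 2, and Rpl32 and Rpl23a in 1. The KO libraries also held 11.1% to 15.1% of counts in mitochondrially encoded genes, against 8.90% to 12.1% in WT, and KO replicates 2 and 3 were sequenced more deeply. The part of both in these counts was not tested.

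Rps27a, which encodes ubiquitin fused to a small subunit protein, had the largest change in culture. It was at 126, 127 and 117 CPM in WT and 204, 587 and 343 CPM in KO, a log2 change of 1.62 (SE 0.21, adjusted p = 2.0e-05). The KO libraries all lay above WT, and KO replicate 2 was the highest. In WAT the libraries of each group were also far apart, at 88.0, 260 and 118 CPM in WT and 146, 323 and 425 CPM in cKO, and the change of 0.94 (SE 0.50) did not pass the test (adjusted p = 0.15).

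Rpl21 was at 47.8, 16.4 and 55.5 CPM in the WT cultures and 69.0, 88.2 and 91.3 CPM in the KO cultures (1.06, SE 0.23, adjusted p = 0.0030). WT replicate 2 was the low library, and without it the change was still called. Rpl17 was at 125, 103 and 127 CPM in WT and 152, 333 and 148 CPM in KO (0.84, SE 0.20, adjusted p = 0.0049). KO replicate 2 was the high library, and without it the change was 0.34 with an adjusted p of 0.10. DESeq2 did not call Rpl21 and Rpl17. Rpl5 rose in culture as well, from 618, 648 and 668 CPM to 918, 857 and 843 CPM (0.44, SE 0.11, adjusted p = 0.0070), without overlap. Rpl11 was at 665, 714 and 638 CPM against 797, 735 and 698, which overlapped (0.15, SE 0.11, adjusted p = 0.37).

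In the other role groups few genes passed the test in culture. None of the 3 stalk genes did by edgeR, at an unadjusted p under 0.05 or by DESeq2: Rplp0 changed by -0.06 (SE 0.12), Rplp1 by 0.25 (SE 0.13) and Rplp2 by 0.15 (SE 0.14). Of the 8 exit tunnel genes 1 rose (12.5%, against 8.94% of all genes). This was Rpl23a, by 0.33 (SE 0.11, adjusted p = 0.044), and all 8 had positive values with a median of 0.22. None of the 6 genes of the mRNA channel and decoding region passed by edgeR or DESeq2, with 1 at an unadjusted p under 0.05. Rps19 rose in culture, from 559, 446 and 393 CPM to 715, 623 and 539 CPM with overlapping groups (0.43, SE 0.13, adjusted p = 0.025). Rps25, needed for initiation at some viral and cellular leaders, rose from 470, 470 and 473 CPM to 635, 605 and 601 CPM (0.38, SE 0.11, adjusted p = 0.014). Rps6 was at 986, 981 and 910 CPM against 1229, 1076 and 1019, all KO libraries above WT, and did not pass the test (0.21, SE 0.11, adjusted p = 0.20). Rpl41, the smallest ribosomal protein, had the lowest fold change of a subunit gene (-0.20, SE 0.12, adjusted p = 0.23).

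Paralogs replace a subunit in chosen tissues or carry a changed sequence. Of the 8 tested in WAT 1 rose and 2 fell (37.5% called, against 52.4% of all genes), and of the 7 tested in culture 2 rose (28.6%, against 19.5% called in either direction). Rpl22l1, which can take the place of Rpl22 and is held down by it, was in the tissue at 35.8, 27.5 and 47.4 CPM in WT against 59.5, 57.5 and 48.8 CPM in cKO (0.58, SE 0.21, adjusted p = 0.048). In culture it rose from 69.3, 67.8 and 69.3 CPM to 131, 111 and 109 CPM (0.76, SE 0.11, adjusted p = 8.5e-05), the smallest p of a paralog there. Rpl22 itself changed by 0.06 (SE 0.14) in WAT and 0.21 (SE 0.11) in culture and passed in neither. Rpl36al rose in culture from 114, 117 and 129 CPM to 171, 162 and 164 CPM (0.46, SE 0.11, adjusted p = 0.0044). Its X-linked partner Rpl36a was at 157, 168 and 171 CPM against 200, 204 and 200, without overlap (0.29, SE 0.10, adjusted p = 0.055). Rps27l, a p53 target, was at 119, 105 and 126 CPM against 83.2, 101 and 64.5 in WAT and at 191, 165 and 172 CPM against 236, 214 and 201 in culture. Neither change passed (-0.49 with adjusted p = 0.055 and 0.30 with adjusted p = 0.056).

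Rpl7l1, a factor of large subunit assembly related to Rpl7, fell in WAT from 117, 132 and 144 CPM to 98.8, 107 and 99.1 CPM (-0.37, SE 0.12, adjusted p = 0.040) and was at 0.17 (SE 0.11) in culture. With library size only it was at 0.31 in WAT. Rpl39l, a paralog best known from the testis, was at 3.39 to 5.55 CPM in WT WAT, 3.85 to 9.21 in cKO WAT and 8.96 to 10.8 in the cultures, and passed in neither comparison. Rpl10l, also known from the testis, had 0 counts in all 12 libraries, and the low counts of Rpl32l left it untested. Rpl3l, the form of Rpl3 of skeletal and heart muscle, was in WAT at 0, 0.417 and 5.00 CPM in WT against 6.12, 0.958 and 0.249 CPM in cKO, and its counts were too few for a test in culture. The summed level of 6 skeletal muscle markers in the same libraries ranged from 31.9 to 1627 CPM in WT and from 44.6 to 1251 in cKO, and the part of muscle in the tissue was not tested. The partners Rpl3, Rpl39 and Rps4x changed by 0.04 (SE 0.19), -0.02 (SE 0.21) and 0.11 (SE 0.24) in WAT and by 0.23 (SE 0.12), 0.20 (SE 0.11) and 0.21 (SE 0.11) in culture, and none passed.

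Rps27 and Rps27rt could not be told apart with certainty. From the annotated start on, they share a stretch of 38 of the first 50 bases, against 10 at most in the 250 bases before it. Of all 50-base words in their transcripts, 98.6% of those of Rps27 and 91.1% of those of Rps27rt also occur in another gene. In culture Rps27 rose from 134, 87.2 and 120 CPM to 170, 179 and 170 CPM (0.60, SE 0.13, adjusted p = 0.0025), while Rps27rt was at 27.9, 59.8 and 12.6 CPM against 35.3, 15.0 and 16.8 CPM (-0.62, SE 0.33, adjusted p = 0.19). WT replicate 2 was the lowest library for Rps27 and the highest for Rps27rt. The sum of both was 162, 147 and 133 CPM in WT and 205, 194 and 186 CPM in KO, without overlap. In WAT Rps27rt fell from 53.9, 54.6 and 58.2 CPM to 33.4, 39.5 and 19.8 CPM (-0.85, SE 0.24, adjusted p = 0.022, and -0.18 with library size only), and Rps27 was at 195, 155 and 208 CPM against 196, 138 and 134 CPM (-0.26, SE 0.19, adjusted p = 0.30). The sum of both in WAT was 249, 210 and 266 CPM in WT and 229, 178 and 153 CPM in cKO, and the groups overlapped.

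The 2 comparisons share no library. In WAT 20.7% of members were called, against 52.4% of all genes, and in culture 18.6%, against 19.5%. The share of all genes called in both was not computed, so the joint counts below are not read as few or many. Of the 86 tested in both, Rpl17, Rpl22l1 and Rpl5 rose in both, Rps19 fell in WAT and rose in culture, 14 passed in WAT and not in culture, and 12 in culture and not in WAT. In a test of the difference between both effects over all 12 libraries, 2 members had a higher effect in WAT (Rps28 and Rpl23) and 16 a lower one. That is 20.7% of 87 members against 48.8% of the 14463 genes tested, with a background of 27.7% higher and 21.1% lower. The largest of the lower differences were those of Rpl21 (-1.39, SE 0.44, adjusted p = 0.019), Rps19 (-0.91, SE 0.21, adjusted p = 0.0031) and Rplp2 (-0.85, SE 0.25, adjusted p = 0.012). Rpl36al (-0.77, SE 0.17, adjusted p = 0.0030) had the smallest p after Rps28. The 2 higher differences became 1 without WT WAT replicate 2, cKO WAT replicate 1, WT culture replicate 2 or 3 or KO culture replicate 3, and 5 without cKO WAT replicate 2. The median difference of members was -0.16 against 0.22 for all genes under TMM. With library size only, 33 members were higher and 0 lower (background 50.7% and 8.28%) with a median of 0.50 against 0.87, and 7 of the 16 lower differences were then above 0.

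**Figure D4:**
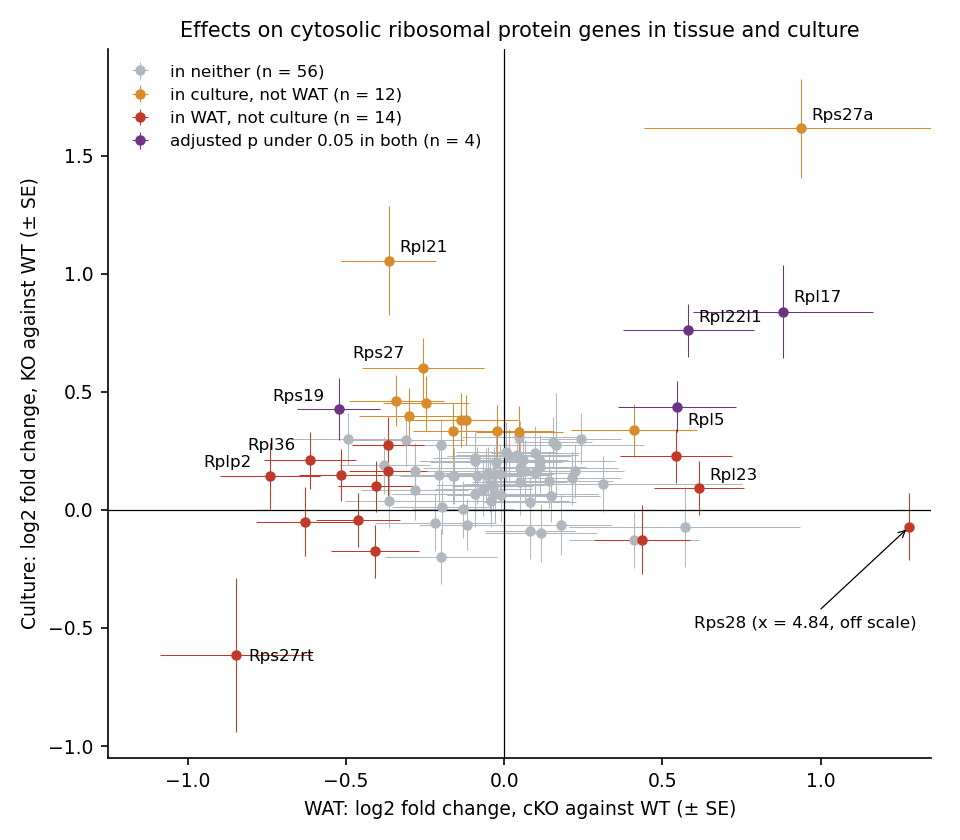
Log2 fold change of each of the 86 members tested in both comparisons, in WAT (x axis, cKO against WT) and in culture (y axis, KO against WT), with SE bars and colours for an adjusted p under 0.05. 70 of the 86 members lie within 0.5 of 0 on both axes, Rps27a and Rpl21 stand out in culture, and Rps28 at 4.84 in WAT is drawn at the right edge.

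Mitochondrial ribosomal proteins, which build the ribosome of the organelle from nuclear genes, fell in the tissue. Of the 78 genes, 71 fell and 0 rose in WAT by edgeR, with 75 and 0 at an unadjusted p under 0.05 and 74 and 0 by DESeq2. That is 91.0% lower, against 24.2% lower and 28.2% higher of all genes. Their median was -0.95, against -0.04 for the cytosolic genes and 0.12 for all genes. With library size only, 25 fell (32.1%, against 8.76% of all genes) and 2 rose with a median of -0.27, against 0.64 for the cytosolic genes. In culture 23 of the 78 rose (29.5%, against 8.94% of all genes, and 15 of the 78 with library size only) and 0 fell (39 and 0 at an unadjusted p under 0.05, 29 and 0 by DESeq2), with a median of 0.26 against 0.16 for the cytosolic genes. Mrps9 had the smallest p in WAT (-1.21, SE 0.10, adjusted p = 0.00053, and -0.53 with library size only) and Mrpl42 in culture (0.57, SE 0.12, adjusted p = 0.0029). No test compared both sets with each other.

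**Figure D5:**
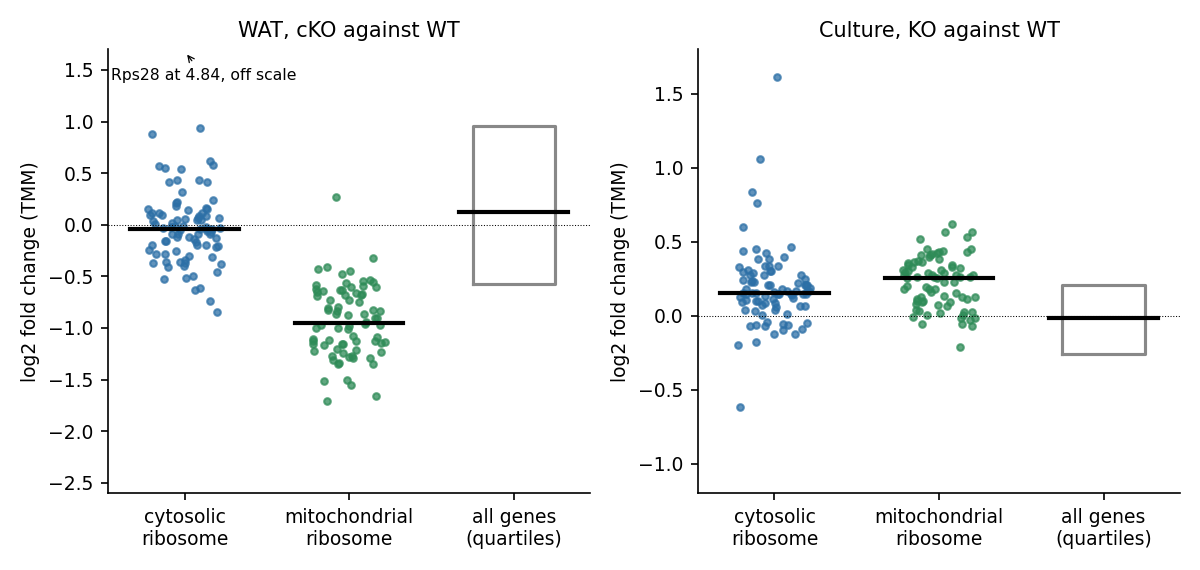
Log2 fold changes under TMM of cytosolic and mitochondrial ribosomal protein genes (points, thick lines at medians) beside the quartiles and median of all genes tested, in WAT (left) and culture (right). In WAT the mitochondrial genes centre on -0.95 and the cytosolic genes on -0.04, while in culture the medians are 0.26 and 0.16; Rps28 in WAT is off scale.

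The shares of all genes that rose and fell, 28.2% and 24.2% in WAT and 8.94% and 10.6% in culture, are the background for the lists that follow. Of 38 translation factors, 9 rose (23.7%) and 15 fell (39.5%) in WAT with a median of 0.05 (23 and 0 with library size only), and 8 rose (21.1%) and 1 fell in culture with a median of 0.21 (4 and 1 with library size only). Eif3i, a subunit of the scaffold that loads messenger RNA on the small subunit, had the smallest p in WAT (-0.997, SE 0.13, adjusted p = 0.0011, and -0.32 with adjusted p = 0.057 with library size only), and Eif4a2, an initiation helicase, in culture (0.94, SE 0.12, adjusted p = 1.1e-05). Of 56 ribosome biogenesis genes, 16 rose (28.6%) and 10 fell (17.9%) in WAT, near the background (43 and 1 with library size only), among them Ncl, which encodes nucleolin (1.36, SE 0.13, adjusted p = 0.00060, and 2.04 with library size only). In culture 14 of them rose and 0 fell by edgeR (23 and 1 at an unadjusted p under 0.05, 17 and 0 by DESeq2), with Utp3 at the smallest p (0.54, SE 0.11, adjusted p = 0.0016). Of 20 regulators of ribosomal protein messenger RNA, 6 rose and 5 fell in WAT, also near the background (14 and 4 with library size only), and 2 rose and 5 fell in culture. Eif4ebp2, a repressor that binds the cap-binding protein eIF4E until mTORC1 phosphorylates it, fell in WAT (-1.42, SE 0.13, adjusted p = 0.00057, and -0.74 with library size only), and Cnbp, which binds TOP messenger RNAs, rose in culture (0.47, SE 0.11, adjusted p = 0.0038).

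Many members share sequence with other genes. Among 88 members with an annotated transcript, the median share of 50-base words found in another gene, pseudogenes included, was 48.3%. Of 12 members tested in culture with under 20% of such words, 0 were called in edgeR and 0 in DESeq2, and 2 rose and 0 fell at an unadjusted p under 0.05. Of 54 with 20% to 80%, 12 rose (22.2%), and of 19 with at least 80%, 4 rose (21.1%), against 8.94% of all genes. The medians of the 3 classes in culture were 0.17, 0.15 and 0.18. In WAT 1 rose and 2 fell of 13, 4 rose and 6 fell of 54, and 2 rose and 3 fell of 19, so that 23.1%, 18.5% and 26.3% were called against 52.4% of all genes. Reads of near-identical copies could have been assigned differently by the authors' counting, which the sources used here do not describe. Members with a run of at least 8 C or T near the start had a median of 0.15 in culture (8 of 53 rose, 15.1%), and those without one a median of 0.09 (1 of 13 rose, 7.69%). In WAT the medians were -0.03 with the run (4 rose and 5 fell of 54) and -0.13 without it (2 rose and 4 fell of 13), with 16.7% and 46.2% called against 52.4% of all genes.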

How the data were processed

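RNA was taken with TRIzol and made into MGIEasy mRNA libraries, per the labels' protocols. The authors deposited raw counts per gene, 1 table for WAT and 1 for the cultures. FastQC 0.11.2, HISAT2 2.1.0, cutadapt 1.11 and the build GRCm38 are named without roles in the submitters' processing notes. Counting tool, annotation and strand were not given in the sources used here. The WAT table holds numbered copies of some symbols.

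Each comparison was fitted over all genes of its own 6 libraries with edgeR 4.0.16 in R 4.3.3 (filterByExpr with a minimum count of 10, TMM, quasi-likelihood test, Benjamini-Hochberg), and the difference between both effects over 12 libraries. The SE is the log2 fold change divided by the root of F. The biological coefficient of variation was 0.319 for the tissue and 0.114 for the cultures. DESeq2 1.42.0 and limma voom 3.58.1 were alternatives. Fits were checked on simulated counts. For each gene a GENCODE transcript of GRCm38 was chosen, the best-ranked one annotated as principal and the longest among equals. Lengths and shared 50-base words came from it, and 85.8% of the tested genes had a length in WAT, 98.0% in culture. The members, lists and tests were chosen with earlier results of these data known. The named genes were those fixed by role, the 4 smallest p and 2 largest and 2 smallest changes per comparison, and the 3 smallest p of the difference; other members called are named for completeness, and some genes that these rules take are not reported here.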

Additional observations from a re-analysis of the deposited data

Results flagged for a closer look

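In 18 members the effect of the deletion differed between tissue and culture by the test of the difference itself (edgeR, adjusted p under 0.05), given as the WAT effect minus the culture effect on the log2 scale under TMM. That is 20.7% of the 87 members tested, below the 48.8% of all 14463 genes tested. It was higher in WAT for Rps28 (4.94) and Rpl23 (0.56). It was lower in WAT for Rpl21 (-1.39), Rps19 (-0.91), Rplp2 (-0.85), Rps27 (-0.82), Rpl36 (-0.79), Rpl36al (-0.77), Rps27l (-0.76), Rps14 (-0.66), Rpl9 (-0.66), Rpl11 (-0.63), Rpl27 (-0.61), Rpl29 (-0.57), Rpl18 (-0.53), Rpl7l1 (-0.50), Rpl24 (-0.47) and Rps25 (-0.47). Of these, 14 kept their call in each of the 12 fits that left out 1 library, and the other 4 were Rpl23, Rpl18, Rpl29 and Rpl24. For Rps28 numbered copies of the symbol also held counts in WAT, and with all copies summed its WAT effect was -0.09. With library size only, Rps28 and Rpl23 were still called and none of the 16 lower differences was. Groups of 3 libraries were not tested for a single library far from the others.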

How the results depend on the processing

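For the counts of ribosomal protein genes in each comparison, settings not named here gave values within 1.5 times the main one. In WAT, 7 members rose and 11 fell. Members that rose were 60 with library size only, 22 with the length and GC trend removed and 3 with RLE size factors, and 2 to 8 with 1 library left out. Members that fell were 0, 6 and 15 under the same 3, 19 with DESeq2, and 3 to 14 with 1 library left out. The median member change of -0.04 became 0.64 with library size only and 0.39 with the trend removed, and ranged from -0.13 to 0.02 with 1 library left out. In culture, 16 rose. Members that rose were 9 with the trend removed (6 fell), 1 in 1 fit over all 4 groups, 3 with both libraries numbered 2 left out (chosen after seeing the data) and 8 to 18 with 1 library left out (0 to 1 fell), and 1 fell with no count filter. Over all genes, 58 of 14463 rose in the fit over all 4 groups and 178 of 12623 without both libraries numbered 2, against 1125 of 12587 in the main fit. The median of 0.16 became 0.0199 with the trend removed and ranged from 0.10 to 0.23 with 1 library left out. For the difference between effects, 2 were higher and 16 lower, against 33 and 0 with library size only and 1 to 5 and 14 to 18 with 1 library left out, and the median of -0.16 became 0.50 with library size only (-0.23 to -0.09 with 1 library left out).

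The log2 ratio of the share of counts in WAT, 0.61, became 0.35 without the 100 most abundant other genes and 0.51 to 0.72 with 1 library left out, and that in culture, 0.10, became 0.15 without mitochondrially encoded genes and 0.13 without the 100 most abundant other genes, and ranged from 0.04 to 0.17 with 1 library left out. Mitochondrially encoded genes could not be left out of the WAT total, since that table lists none. Members with a pyrimidine run numbered 15 at the start, 32 within 5 bases and 55 with a run of at least 8 (chosen after seeing the data).

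Single members changed direction in WAT with library size only, where Rpl11 was at 0.17, Rpl36 at 0.064, Rpl7l1 at 0.31, Rps19 at 0.16, Rps19bp1 at 0.046, Rpl39 at 0.65, Rpl41 at 0.48 and Rps6 at 0.59. With the length and GC trend removed Rpl11 was at 0.10, Rpl36 at 0.12, Rps19 at 0.11, Rpl38 at 0.66 and Rpl41 at 0.52. For the difference between effects with library size only, Rpl11 was at 0.027, Rpl22 at 0.54 and Rpl7l1 at 0.15. Rps28 in WAT was at -0.0911 with its numbered copies summed, also when Rps27 and Rps27rt were summed too (-0.0912). The changes with library size only reflect the TMM factors given above, and what made these factors differ between the WAT groups was not tested. The cause of the changes with the trend removed was not tested either.

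With the replicate number as a block, 5 members rose and 6 fell in WAT and 25 rose and 0 fell in culture. Over all genes, 3771 rose and 3487 fell of 16293 in WAT under the block, and 1816 rose and 2008 fell of 12587 in culture. The main fits had 4595 and 3947 in WAT and 1125 and 1334 in culture. The labels do not say that a number marks a shared animal or day. Deviations of same-numbered WT and knockout libraries correlated at -0.35, 0.02 and -0.23 in WAT and at 0.22, 0.04 and 0.27 in culture, so not every library went best with its own number.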
